A study of Homo sapiens with 6 samples.

Results

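Chemokines are small secreted proteins that direct the movement of leukocytes. The 10 chemokine genes described here were taken by gene name from a table of 33900 genes measured in LX-2 cells, an immortalised human line of hepatic stellate origin. Stellate cells are the liver cells that lay down collagen in fibrosis. They are the CXC chemokine genes CXCL1, CXCL2, CXCL3, CXCL5, CXCL6 and CXCL8, whose products carry the ELR (glutamate-leucine-arginine) motif and attract neutrophils through the receptors CXCR1 and CXCR2, the CC chemokine genes CCL2, CCL7 and CCL20, and CX3CL1. The products of CCL2 and CCL7 attract monocytes through CCR2, that of CCL20 attracts CCR6-bearing lymphocytes and dendritic cells, and CX3CL1 encodes fractalkine, a membrane-bound chemokine. The ELR+ CXC genes lie side by side on chromosome 4 and are textbook targets of NF-κB, a transcription factor activated by IL1 and TNF. Their mRNAs are short-lived, since AU-rich elements in the 3' untranslated region are bound by proteins that speed or slow their decay.

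The comparison asked how the transcriptome of stellate cells responds to Sema3C, a secreted semaphorin made by hepatocellular carcinoma cells. Wild-type LX-2 cells in DMEM with serum received rhSema3C, the recombinant human protein, at 300 ng/ml (3 samples) or PBS (3 samples) for 48 h. The labels number the samples as biological replicates of 1 cell line and do not say whether they came from separate cultures, so the p-values measure the spread between these samples. Total counts per sample ranged from 68267808 to 89245585. Replicates differed by more than counting noise (chi-square per degree of freedom 13.5 to 22.1). Among the PBS samples it was 22.1 and 21.6 for the pairs with replicate 1, and 13.5 for replicates 2 and 3. Mitochondrial genes held 4.75 to 5.42% of the counts with PBS and 3.73 to 3.93% with rhSema3C, and their part in the results below was not tested. Of the stellate cell and fibroblast markers, VIM had 349980 counts or more and COL1A1 43158 or more in every sample, whereas the quiescent-cell marker LRAT had at most 4, DES at most 12, the matrix gene DCN 4 to 12 and COL1A2 60 to 132. PTPRC, which defines leukocytes, had 0 to 12 counts per sample. The hepatocyte gene ALB had 0 to 9 and the endothelial gene PECAM1 20 to 61. Other listed markers of these cell types had more reads. The leukocyte markers CD68 and CD14 had 12452 to 18123 and 374 to 713 counts per sample. The hepatocyte marker SERPINA1 had 891 to 1750, and the endothelial markers KDR and TEK had 310 to 433 and 225 to 298.

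The promoters of the chemokine genes are shown first. The ELR+ CXC genes shared an element there, and its relation to their changes was not tested. For 8 of the 10 genes (all but CCL2 and CX3CL1) RefSeq promoters on GRCh38.p14 were at hand, each running from 250 bases before the RefSeq start to 50 after it. The last 120 bases before the start are printed 5' to 3' on the gene's own strand, except for CCL7, which was searched but is not printed. Capitals mark GGAATTTCC, a 9-base form of the NF-κB binding site, and in CCL20 a match to the 10-base NF-κB consensus.
CXCL8: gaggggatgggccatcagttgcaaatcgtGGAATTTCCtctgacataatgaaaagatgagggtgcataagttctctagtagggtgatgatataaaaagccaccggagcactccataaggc
CXCL2: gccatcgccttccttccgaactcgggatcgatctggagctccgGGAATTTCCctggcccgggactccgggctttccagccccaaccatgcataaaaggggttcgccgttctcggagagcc
CXCL3: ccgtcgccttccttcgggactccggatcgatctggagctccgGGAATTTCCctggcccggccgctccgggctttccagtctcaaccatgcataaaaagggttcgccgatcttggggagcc
CXCL1: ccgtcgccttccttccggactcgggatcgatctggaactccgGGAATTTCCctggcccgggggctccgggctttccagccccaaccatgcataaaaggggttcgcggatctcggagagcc
CXCL5: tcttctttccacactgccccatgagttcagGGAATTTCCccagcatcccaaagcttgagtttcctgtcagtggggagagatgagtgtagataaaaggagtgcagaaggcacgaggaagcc
CXCL6: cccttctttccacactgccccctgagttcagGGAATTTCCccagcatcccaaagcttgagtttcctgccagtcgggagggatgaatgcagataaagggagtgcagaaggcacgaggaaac
CCL20: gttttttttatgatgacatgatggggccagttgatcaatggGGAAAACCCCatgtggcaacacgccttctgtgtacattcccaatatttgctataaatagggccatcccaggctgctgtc
These windows lie at CXCL8 chr4:73740449-73740568 (plus strand), CXCL2 chr4:74099196-74099315 (minus strand), CXCL3 chr4:74038690-74038809 (minus strand), CXCL1 chr4:73869273-73869392 (plus strand), CXCL5 chr4:73998678-73998797 (minus strand), CXCL6 chr4:73836558-73836677 (plus strand) and CCL20 chr2:227813722-227813841 (plus strand). All 6 ELR+ CXC promoters held GGAATTTCC (searched on both strands), beginning 77 to 91 bases before the start. It stood in 162 of 35116 RefSeq promoters of the same length (0.461%). CCL20 and CCL7 did not hold it, and the match to the NF-κB consensus in CCL20 began 79 bases before its start. That consensus overlaps GGAATTTCC and was found in 11.3% of all promoters. The other 5 ELR+ CXC promoters matched it as well, and that of CXCL8 did not. The AP-1 element TGANTCA, in 7.71% of promoters, stood in CXCL8 (137 bases before the start) and CCL7, and TATAAA, in 11.5%, stood in CXCL8, CCL7 and CCL20. Over the whole 300-base windows the promoters of CXCL1 and CXCL3 were 82.5% identical, those of CXCL5 and CXCL6 83.1%, and those of CXCL8 and CXCL2 43%. Pairs of a CXC and a CC promoter ran from 42.8% (CXCL6 and CCL20) to 47.7% (CXCL8 and CCL20). A match is a description of the letters and not evidence that a factor was bound.

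With rhSema3C, CXCL8, CXCL2 and CXCL3 rose between 2.24- and 3.83-fold and CCL20 rose 5.00-fold, CXCL5 rose 1.26-fold, and CXCL6 and CCL2 fell. CCL7 was called lower on few counts, a call that was lost under several alternatives given below. CXCL1, the most abundant chemokine transcript with PBS, did not pass the test. Thus neither the CXC nor the CC chemokines moved as a class. A gene was tested if its mean FPKM (fragments scaled to transcript length and library size, as deposited) was at least 0.5 over the 6 samples, and 9 of the 10 chemokine genes passed. CCL7 passed only through its PBS samples, with a mean FPKM of 0.544 over all samples and of 0.401 with rhSema3C. At an adjusted p below 0.05 (edgeR quasi-likelihood test, 3 samples against 3), 5 chemokine genes were higher, where 31.7% of the 14178 genes tested were higher, and 3 were lower (CXCL6, CCL2 and, with the limit just given, CCL7), where 30.6% were lower. At a change of more than 2-fold, 4 were higher (CXCL8, CXCL2, CXCL3 and CCL20) and 1 was lower (CXCL6), beside 3.31% and 2.06% of all genes tested (5.37% in either direction). In 8 of the 9 the samples of the groups did not overlap in CPM (counts scaled to the library total with TMM factors), as was the case in 67.8% of all genes tested. With scaling by library size alone, the median log2 fold change of all genes tested moved from 0.02 to 0.13 and the share of calls that were higher from 50.9 to 62.3%.

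**Figure D1:**
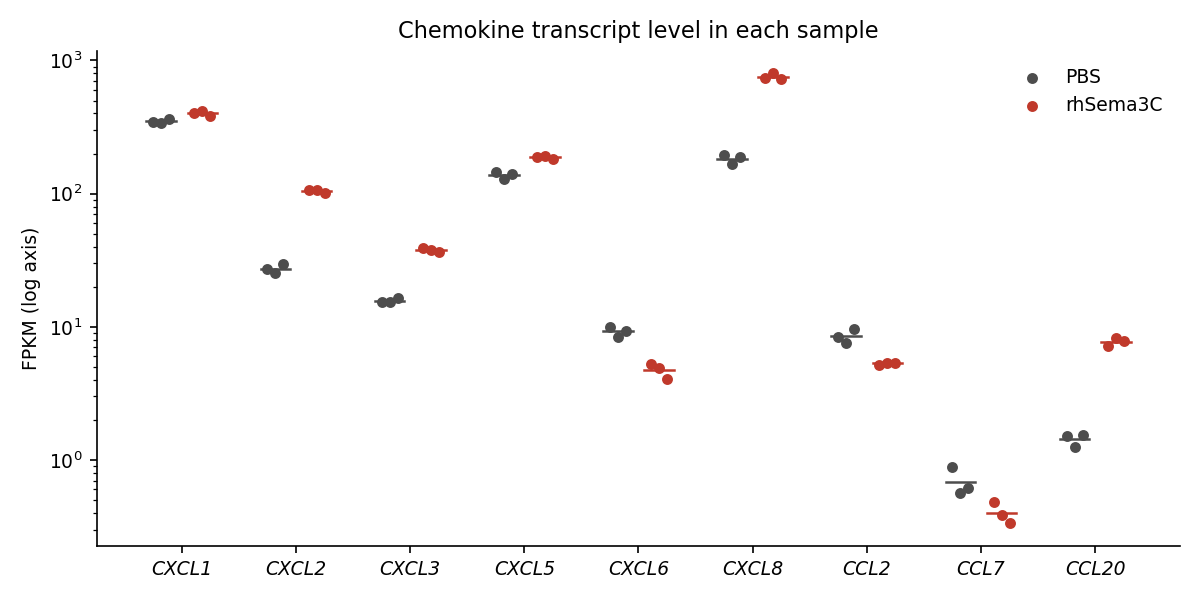
FPKM of the 9 chemokine genes tested (log axis) in the 3 PBS and 3 rhSema3C samples, each point 1 sample and each line a group mean. CXCL8, CXCL2, CXCL3 and CCL20 sit clearly higher with rhSema3C and CXCL6 and CCL2 lower, whereas CXCL1 lies at 340 to 361 with PBS and 383 to 417 with rhSema3C.

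CXCL8 (ENSG00000169429, chromosome 4, 73740541 to 73743716) encodes interleukin-8, the main neutrophil attractant of human tissues. Its CPM was 467.6, 401.5 and 444.0 in the PBS samples and 1641, 1782 and 1611 in the rhSema3C samples. Every rhSema3C sample was more than 3 times as high as any PBS sample. On the log2 scale it rose by 1.94 (SE 0.06, edgeR quasi-likelihood test, adjusted p = 1.4e-09). CXCL2 (ENSG00000081041, 74097040 to 74099195), which encodes MIP-2α, had CPM values of 40.2, 37.8 and 44.0 with PBS and 147.2, 147.6 and 138.8 with rhSema3C. Its log2 fold change of 1.83 (SE 0.06, same test, adjusted p = 1.6e-09) was close to that of CXCL8, and their 95% intervals (1.70 to 1.96 and 1.80 to 2.07) overlapped. CXCL3 (ENSG00000163734, 74036589 to 74038807), which encodes MIP-2β, stood at 36.2, 36.7 and 38.7 CPM with PBS and at 86.7, 83.5 and 80.1 with rhSema3C. It rose by less than either (log2 fold change 1.17, 95% interval 1.05 to 1.28, same test, adjusted p = 2.0e-08). For CXCL8, which the paper calls IL8, the paper also reports a rise in its RNA sequencing, and names IL6 and IL8 as the most significantly raised. In public data of liver tumours it reports a positive correlation of Sema3C with IL8 expression. The paper's qRT-PCR of LX-2 cells given rhSema3C or medium of Sema3C-overexpressing tumour cells covered IL6 and IL8. There only IL6 was significantly raised.

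CXCL5 (ENSG00000163735, 73995642 to 73998677) encodes ENA-78, and its CPM was 378.1, 339.1 and 365.7 with PBS and 456.5, 465.8 and 440.4 with rhSema3C. The groups were apart but the change was small (log2 fold change 0.33, SE 0.05, edgeR quasi-likelihood test, adjusted p = 0.00011). AC097709, a gene of the other strand, overlaps CXCL5, but with 132 to 360 counts per sample beside at least 23625 of CXCL5, and with the strand setting unknown their reads may not be told apart. CXCL1 (ENSG00000163739, 73869393 to 73871308) encodes GROα and had 501.9, 497.5 and 521.6 CPM with PBS against 545.0, 563.8 and 515.8 with rhSema3C. Here rhSema3C replicate 3 lay below PBS replicate 3 in CPM, but above it in the deposited FPKM (382.5 against 360.7). The log2 fold change was 0.10 (95% interval -0.00 to 0.19, adjusted p = 0.084, edgeR quasi-likelihood test). This call depended on the scaling, since with library size alone it was 0.20 (adjusted p = 0.0018, same test), and without rhSema3C replicate 3 it was 0.13 (adjusted p = 0.047). The value was above 0 under each of the 15 alternatives (adjusted p 0.00028 to 0.27).

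CXCL6 (ENSG00000124875, 73836640 to 73838760), which encodes GCP-2, was the only ELR+ CXC gene that fell. Its CPM was 21.6, 18.4 and 20.3 with PBS and 10.6, 10.0 and 8.14 with rhSema3C. Each rhSema3C sample was well below each PBS sample, with a log2 fold change of -1.07 (SE 0.12, edgeR quasi-likelihood test, adjusted p = 1.2e-05). CXCL6 and CXCL5 are the closest pair among the promoters printed above, and the ratio of CXCL5 to CXCL6 counts within a sample was 17.5 to 18.4 with PBS and 43.0 to 54.1 with rhSema3C. In GENCODE 29 transcripts, 12.5% of the 50-base stretches of CXCL2, 6.01% of those of CXCL3 and 4.81% of those of CXCL1 also occur in another of these 3 genes, so a part of their reads may have been split between them. CXCL8 and the CC genes shared none with another gene.

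CCL20 (ENSG00000115009, chromosome 2, 227805739 to 227817556) had the largest fold change of the set. Its counts were 219, 151 and 173 with PBS and 978, 1198 and 1031 with rhSema3C, or 2.56, 2.17 and 2.63 CPM against 11.3, 13.1 and 12.4. The groups were far apart (log2 fold change 2.32, SE 0.13, edgeR quasi-likelihood test, adjusted p = 9.5e-08), and CCL20 ranked 22 by size among all genes that rose. CCL2 (ENSG00000108691, chromosome 17, 34255218 to 34257203), which encodes the monocyte attractant MCP-1, had 17.9, 16.2 and 20.3 CPM with PBS and 10.3, 10.7 and 10.6 with rhSema3C. It thus moved opposite to CCL20 (log2 fold change -0.78, SE 0.10, same test, adjusted p = 4.6e-05). CCL7 (ENSG00000108688, chromosome 17, 34270221 to 34272242) encodes MCP-3 and lies within 17.02 kb of CCL2, measured over both genes. It had 69, 37 and 38 counts with PBS and 36, 31 and 24 with rhSema3C. Its log2 fold change was -0.88 (95% interval -1.55 to -0.20, adjusted p = 0.027, edgeR quasi-likelihood test). The call did not hold without PBS replicate 1 (-0.67, adjusted p = 0.12), without rhSema3C replicate 2 (adjusted p = 0.071) or without rhSema3C replicate 3 (adjusted p = 0.088), nor with DESeq2 (adjusted p = 0.090). The ratio of CCL2 to CCL7 counts overlapped between the groups (22.1 to 35.1 with PBS, 24.6 to 36.8 with rhSema3C). CX3CL1 (ENSG00000006210, chromosome 16, 57372477 to 57385044) had 0, 4 and 0 counts in each group and was at the limit of detection at this depth, so no fold change is given.

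The neutrophil-attracting CXC genes were then set against the CC genes. The log2 fold changes of the 6 CXC genes ran from -1.07 to 1.94 with a median of 0.75, beside a median of 0.02 over all genes tested. Of the CC genes, CCL20 stood at 2.32, CCL2 at -0.78 and CCL7 at -0.88. No median is given for the CC genes, since only 3 were tested and the call of CCL7 was not stable. CCL20 lay above each CXC gene and CCL2 above CXCL6, so the classes overlapped. Ratios of counts within a sample do not depend on the scaling between samples. The summed CXC counts were 68.1, 70.5 and 61.1 times the summed CC counts with PBS, and 130.9, 126.7 and 120.01 times with rhSema3C, a difference of 0.92 on the log2 scale. CXCL8 held 29.7 to 31.9% of the counts of the 10 genes with PBS and 56.4 to 57.9% with rhSema3C. Leaving out the gene of each class with the most counts over the 6 samples together, CXCL8 and CCL2, the ratio went the other way, from 290.6, 344.5 and 308.7 with PBS to 105.9, 94.5 and 93.4 with rhSema3C (-1.68 on the log2 scale), where CCL20 then held most of the CC counts. For CXCL8 and CCL2 themselves the ratio was 26.2, 24.8 and 21.9 with PBS and 159.4, 167.3 and 151.7 with rhSema3C, or 6.58 times as high (exact permutation test, two-sided, p = 0.1, which 3 samples against 3 cannot go below). Within the CC class the ratio of CCL20 to CCL2 counts was 0.130 to 0.143 with PBS and 1.10 to 1.23 with rhSema3C.

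**Figure D2:**
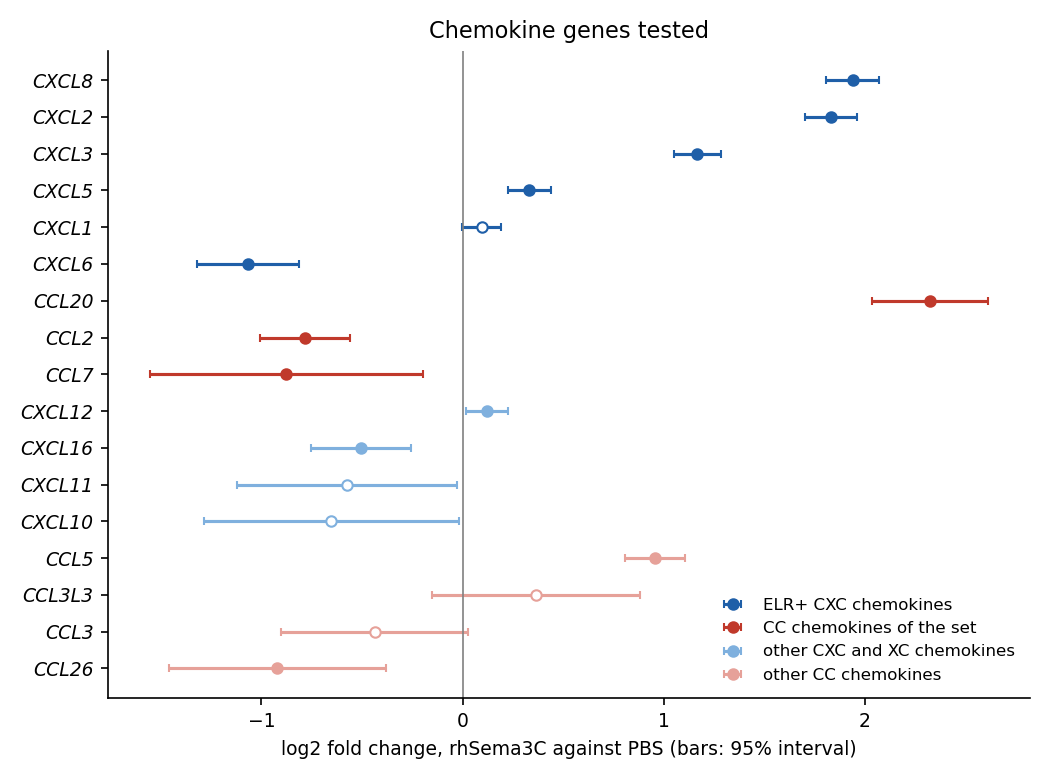
Log2 fold change (rhSema3C against PBS, 3 samples each) of the 17 chemokine genes tested, with 95% intervals from the edgeR fit; filled points passed an adjusted p of 0.05. Rises and falls occur in both the CXC and the CC class, with CCL20 at 2.32 and CXCL6 at -1.07.

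Compared per length, as FPKM, the chemokine transcripts changed their order. With PBS, CXCL1 was highest at 349.2 ± 10.4 FPKM, followed by CXCL8 at 183.4 ± 14.9 and CXCL5 at 139.0 ± 8.32 (SD, n = 3 in each group here and below). CXCL2 at 27.3 ± 2.24, CXCL3 at 15.7 ± 0.609, CXCL6 at 9.25 ± 0.775 and CCL2 at 8.54 ± 1.00 came next. The samples of CXCL6 and CCL2 overlapped, so their order is not resolved. CCL20 and CCL7 stood at 1.43 ± 0.152 and 0.687 ± 0.167 FPKM. With rhSema3C, CXCL8 was first at 754.6 ± 40.9 FPKM, above CXCL1 at 400.4 ± 17.2 and CXCL5 at 187.8 ± 4.99. CXCL2 had reached 104.1 ± 3.36 and CXCL3 37.8 ± 1.40. CCL20, at 7.74 ± 0.570, now lay above CCL2 at 5.32 ± 0.111 and CXCL6 at 4.73 ± 0.629, which again overlapped. Among the 14178 genes tested, CXCL8 went from rank 165 to rank 24 by mean FPKM and CXCL1 from rank 74 to rank 59. The 10 genes together took 0.129 to 0.141% of all counts with PBS and 0.292 to 0.318% with rhSema3C. In bulk RNA, fewer cells expressing a gene and less RNA per cell cannot be told apart.

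**Figure D3:**
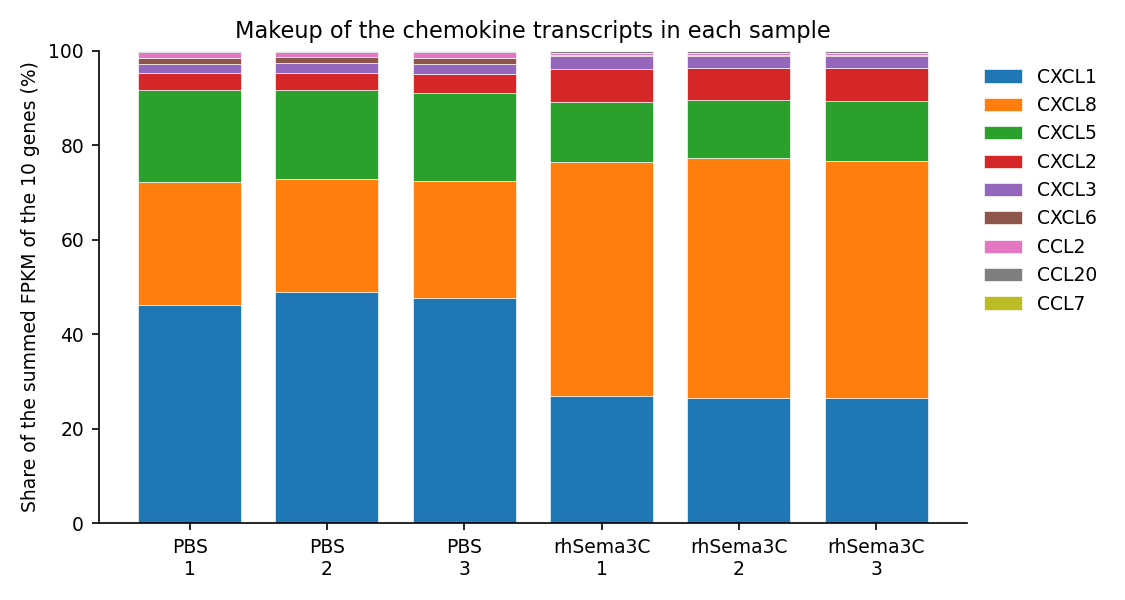
Share of each chemokine gene in the summed FPKM of the 10 genes (stacked bars, 1 per sample; CX3CL1 is too low to draw). CXCL8 made up 24.0 to 26.1% with PBS and 49.4 to 50.9% with rhSema3C, while CXCL1 went from 46.1 to 48.9% to 26.5 to 27.0%.

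The 6 ELR+ CXC genes lie within 358.7 kb of chromosome 4 (GRCh38, 73740541 to 74099195). From the CXCL8 end the order is CXCL8, CXCL6 and CXCL1 on the plus strand, then CXCL5, CXCL3 and CXCL2 on the minus strand. The largest rises were at the opposite ends of the cluster, in CXCL8 and CXCL2, while CXCL6, which fell, sat 92.9 kb from CXCL8 and 30.6 kb from CXCL1. PPBP, an ELR+ chemokine gene of platelets between CXCL1 and CXCL5, had 0 counts in 5 samples and 4 in rhSema3C replicate 3.

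**Figure D4:**
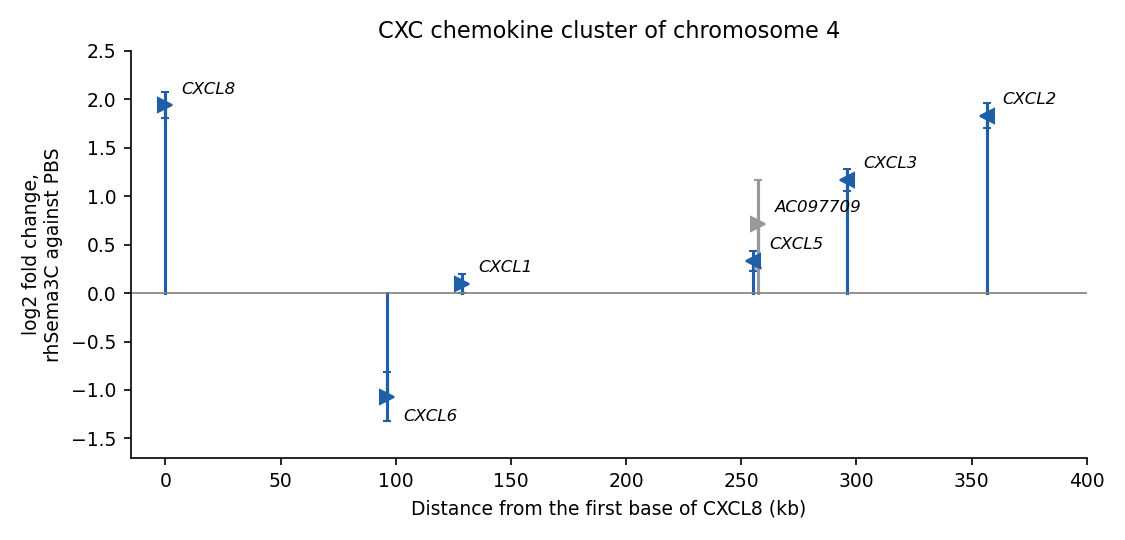
Log2 fold change of the genes tested in the chromosome 4 cluster against the distance of each gene's lower coordinate from the first base of CXCL8 (kb); arrowheads point along the strand and bars are 95% intervals. CXCL8 (1.94) and CXCL2 (1.83) are highest at the outer ends, CXCL1 is at 0.10 and CXCL6 at -1.07 between them; AC097709 (grey) is not a chemokine gene.

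Of the other chemokine genes listed, 15 were analysed here and 8 were tested. CCL5, which attracts T cells and monocytes, rose from 27.8, 29.5 and 25.9 CPM to 55.5, 51.4 and 54.7 (log2 fold change 0.96, SE 0.07, edgeR quasi-likelihood test, adjusted p = 4.5e-07). CXCL12, the stromal ligand of CXCR4, rose slightly (0.12, adjusted p = 0.043, same test). CXCL16, a membrane-bound ligand of CXCR6, fell by 0.50 on the log2 scale (adjusted p = 0.0024) and CCL26, an eosinophil attractant, fell by 0.92 (adjusted p = 0.0067). The interferon-inducible genes CXCL10 and CXCL11 had log2 fold changes of -0.65 and -0.57 that did not pass (adjusted p = 0.068 and 0.064), nor did those of CCL3 (-0.44) and CCL3L3 (0.37), which are near-identical copies and may share reads. The receptors were low. Of 23 receptor genes, 20 were analysed, 4 passed the filter on FPKM and 9 had at most 10 counts in any sample. CXCR2, the receptor of the ELR+ chemokines, had 9 to 36 counts per sample, and CCR2 and CCR6, the receptors for CCL2 and CCL20, at most 4. CCR1, a receptor for CCL3, CCL5 and CCL7, had 107, 103 and 73 counts with PBS and 27, 34 and 17 with rhSema3C and was below the filter. The atypical receptor gene CCRL2 fell, with 16.0 ± 0.793 CPM in PBS samples and 10.03 ± 0.317 CPM in rhSema3C samples (mean ± SD, n = 3, log2 fold change -0.67, edgeR quasi-likelihood test, adjusted p = 6.3e-05).

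Among 25 transcription regulators of chemokine genes, all tested, 12 were higher and 8 lower, with a median log2 fold change of 0.14. For this list and those that follow, the shares over all genes tested were 31.7% higher and 30.6% lower, with a median of 0.02. NFKBIZ, which encodes the atypical nuclear NF-κB cofactor IκBζ, rose from 78.1, 79.2 and 78.0 CPM to 155.4, 162.3 and 166.1 (log2 fold change 1.04, adjusted p = 8.1e-09, edgeR quasi-likelihood test). The NF-κB subunit gene REL rose by 0.87, NFKB2 by 0.29 and RELB by 0.37 on the log2 scale, while RELA, the p65 gene, fell by 0.28. REL passed the filter only through its rhSema3C samples, with a mean FPKM of 0.415 with PBS and 0.815 with rhSema3C. The feedback inhibitors TNFAIP3 (0.88) and NFKBIA (0.53) rose, whereas the inhibitor genes NFKBIB and NFKBIE fell by 0.63 and 0.34. Of the AP-1 and immediate early genes, ATF3 (1.00) and JUND (0.41) rose, whereas FOS fell by 0.84, EGR1 by 0.79 and JUN by 0.35. CEBPD rose by 0.64, and CEBPB, at 0.20, did not pass (adjusted p = 0.081, same test). Each of these other values passed an adjusted p of 0.05.

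Of 16 genes for inducing cytokines and their receptors, 13 were tested, 6 of them higher and 6 lower, with a median of 0.07 that was -0.05 without the filter on low genes. IL1B, an inducer of CXCL8, was itself abundant and rose from 926.1, 924.2 and 948.9 CPM to 1379, 1319 and 1338 (log2 fold change 0.53, adjusted p = 4.8e-07, edgeR quasi-likelihood test). IL1A rose by 1.33 and the co-receptor IL1RAP by 1.01 on the log2 scale. The adaptor MYD88 fell by 0.82 and the TNF receptor TNFRSF1A by 0.67, whereas the other TNF receptor gene listed, TNFRSF1B, rose by 0.43. TNF itself had at most 10 counts in any sample. Among 11 other factors that act on neutrophils or monocytes, 9 were tested, 5 higher and 2 lower, with a median of 0.27. The neutrophil growth factor CSF3 rose from 90.5, 101.6 and 96.3 CPM to 202.1, 202.0 and 194.8 (log2 fold change 1.05, adjusted p = 2.1e-08, same test), and CSF2 (0.99), IL6 (1.73) and VCAM1 (0.95) rose as well. ICAM1, an adhesion receptor for neutrophils, had a log2 fold change of -0.05 (adjusted p = 0.36) and a level above 299 CPM in each sample.

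The AU-rich pentamer ATTTA occurred 5 times in the 3' untranslated region of CXCL1, 10 times in CXCL2, 7 in CXCL3, 11 in CXCL5, 6 in CXCL6, 9 in CXCL8 and 3 in CCL20, but once in CCL2 and once in CCL7 (GENCODE 29, transcript with the longest 3' region). Per kilobase this gave 13.9 in CXCL2, 10.4 in CXCL3, 7.19 in CXCL8, 7.08 in CXCL1, 6.24 in CCL20, 5.51 in CXCL5, 5.36 in CXCL6 and about 2.1 in CCL2 and CCL7. The median over 10783 genes tested with at least 200 bases of 3' region was 1.78, and 4.58 was the 90th percentile. CX3CL1 held 2 ATTTA, or 0.992 per kilobase. The nonamer TTATTTATT stood in CXCL1, CXCL2, CXCL3, CXCL8 and CX3CL1, and in 9.98% of the genes tested with such a 3' region. The relation of these elements to the changes was not tested. Of the 12 genes for decay and stability factors of such mRNAs, 3 were higher and 5 lower, with a median log2 fold change of -0.04 that became 0.07 with scaling by library size alone. KHSRP, which promotes the decay of AU-rich mRNAs, fell from 349.1, 375.8 and 360.4 CPM to 250.5, 221.1 and 225.3 (log2 fold change -0.64, adjusted p = 1.7e-06, edgeR quasi-likelihood test). HNRNPD, which encodes the decay factor AUF1, fell by 0.45, and the stabilising factor ELAVL1 fell by 0.41. ZFP36, which encodes the decay factor tristetraprolin, rose by 0.37, and its relatives ZFP36L1 and ZFP36L2 had values of 0.03 and -0.00 that did not pass.

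**Figure D5:**
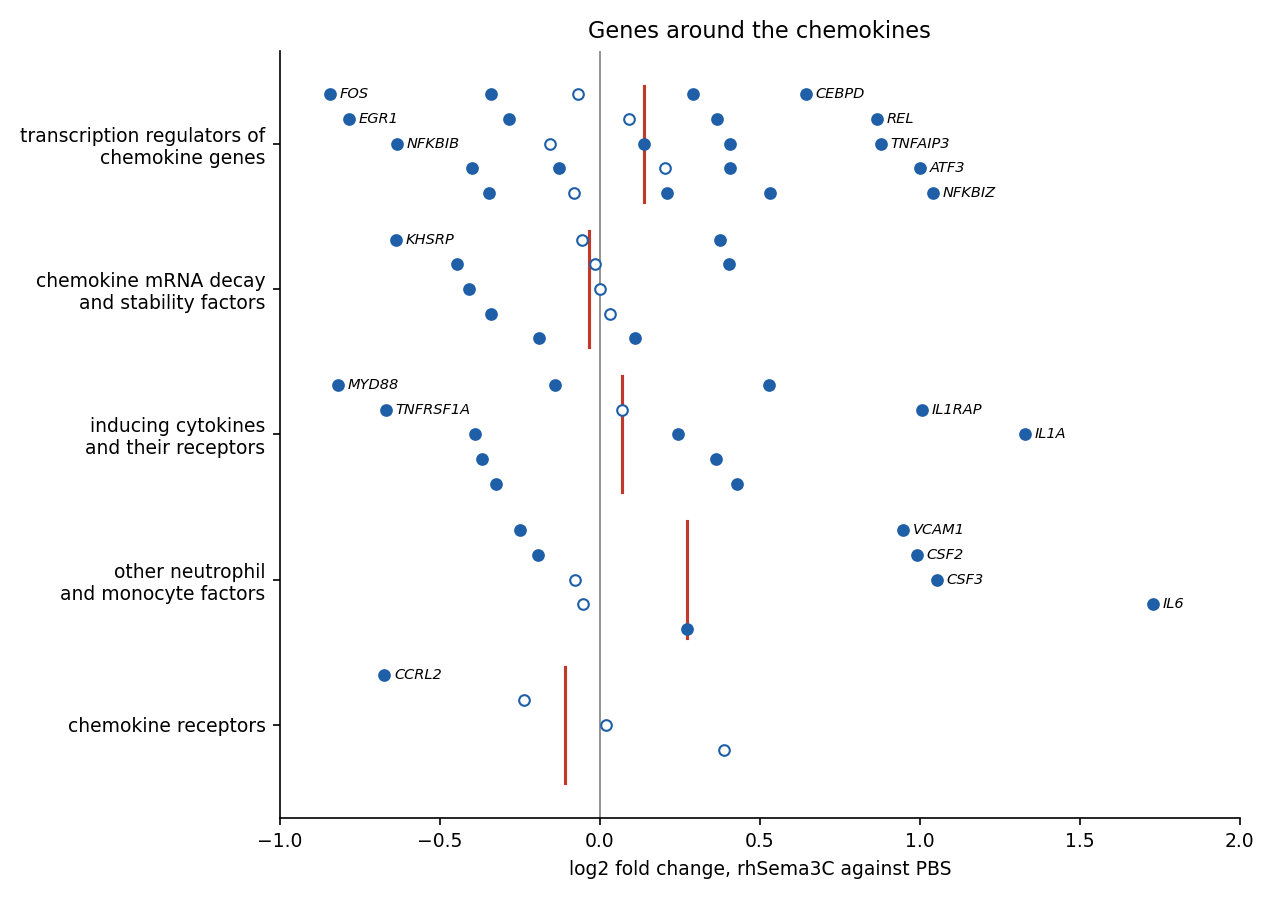
Log2 fold change (rhSema3C against PBS) of the genes tested in 5 gene lists, 1 point per gene, filled where the adjusted p was below 0.05, with the list median as a red line. The medians lie between -0.11 and 0.27 (that of the receptors, -0.11, is -0.00 with scaling by library size alone), and each list with more than 4 genes tested has members on both sides of 0.

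Apart from the chemokines, 53 genes tested held GGAATTTCC in their promoter, of which 25 were higher, 17 lower and 11 did not pass, with a median log2 fold change of 0.22, where 31.7% of all genes tested were higher and 30.6% lower. Over the 6 samples, the genes whose centred log2 CPM profile lay nearest to that of CXCL8 were CEBPG (root mean square difference 0.051), MT-RNR1, RAB39B, ARRDC3 and CXCL2 (0.087). Nearest to CCL2 were TBXA2R (0.053), TNFRSF21, BYSL, MT2A and FAM20C (0.064). The first 5 genes had log2 fold changes of 1.83 to 2.02 and the other 5 of -0.81 to -0.71. Being picked by profile over the same samples, they were bound to have fold changes like those of CXCL8 and CCL2. Among markers of other cell types, the summed CPM of the 8 leukocyte markers analysed went from 216.5 to 238.3 with PBS to 144.1 to 155.9 with rhSema3C, nearly all of it CD68. The 7 endothelial markers summed to 9.48 to 12.03 CPM with PBS and 13.5 to 17.3 with rhSema3C, where VWF had 71 to 88 counts and 513 to 653 counts. The 6 hepatocyte markers summed to 14.2 to 16.97 and 17.2 to 21.1 CPM. The 12 stellate cell and fibroblast markers summed to 6923 to 7186 and 5005 to 5351 CPM, most of it VIM. Of these, 7 were tested, with 5 lower (30.6% of all genes tested were lower) and 2, PDGFRB and LUM, not passing. The part of other cells in the chemokine results was not tested.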

How the data were processed

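RNA from LX-2 cells was sequenced by the authors on an Illumina NovaSeq instrument, and their differential expression used Cufflinks and cuffmerge. Which aligner, counter, strand option and genome build they used is not given in the sources used here. The values deposited for every gene were a count, in whole numbers, and its FPKM, scaled to transcript length and library size. Since the counting is not described, the counts may be rounded estimates, which bears most on counts of a few reads. Of 32887 genes shared with GENCODE 29 (GRCh38), 99.95% overlapped the annotated position. Every sample column was used. Samples were grouped by their titles.

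Genes were kept at a mean FPKM of 0.5 or more (14178 genes), and their counts were compared with edgeR 4.0.16 (quasi-likelihood test, TMM factors, R 4.3.3), with Benjamini-Hochberg adjustment over all genes tested. The test was tried on simulated data. Alternatives used limma 3.58.1 on log2(FPKM + 1), log2(FPKM + 0.1) and log2(TPM + 1), DESeq2 1.42.0, other scalings and filters, a block on the replicate number, and fits without 1 sample at a time. The TPM fit was added after the data were seen. The intervals come from the fit, and totals of 68267808 to 89245585 counts set the precision. Reads are not counted molecules.

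The chemokine genes and the gene lists were chosen with earlier results of these data known. The genes named are the 10 chemokine genes, members of the lists, and the 5 genes nearest in profile to CXCL8 and to CCL2. AC097709 falls outside this rule and was named after its values were seen.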

Additional observations from a re-analysis of the deposited data

How the results depend on the processing

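The log2 fold changes of CXCL2, CXCL3, CXCL5, CXCL6, CXCL8 and CCL2 kept their direction and stayed below an adjusted p of 0.05 in all 15 alternatives, and so did CCL20 in 14. At a mean FPKM of at least 5, CCL7 and CCL20 were not tested. In fits without 1 sample, CXCL8 lay at 1.88 to 1.99, CCL20 at 2.24 to 2.37, CXCL6 at -1.15 to -0.96 and CCL2 at -0.86 to -0.69. CXCL1 passed with library size alone (0.20), limma on log2(FPKM + 1) (0.20) and on log2(FPKM + 0.1) (0.20), a mean FPKM of at least 5 (0.20) and log2(TPM + 1) (0.32), and ranged from 0.066 to 0.13 with a sample left out. CCL7 did not pass with DESeq2 (-0.89), no filter (-0.89) or log2(TPM + 1) (-0.42), and ranged from -1.03 to -0.67 with a sample left out. The difference in the log2 ratio of CXC to CC sums was 0.92, was 0.70 with sums of FPKM, and turned to -1.68 without CXCL8 and CCL2, which had the most counts of each class over the 6 samples together. It was 0.86 to 0.96 with a sample left out. The order of levels was the same in TPM.

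With a stricter filter (mean FPKM of at least 5) 2630 genes were higher and 2602 lower, 166 and 70 of them by more than 2-fold. Fewer genes were tested there, and the part of this in the lower numbers was not tested. With log2(TPM + 1) 6934 were higher and 2428 lower (74.1% higher), with 92 lower by more than 2-fold. Beyond 2-fold, limma on log2(FPKM + 1) gave 172 higher and 74 lower, limma on log2(FPKM + 0.1) gave 179 lower, and the unfiltered fit 786 higher. The main counts were 4490 higher and 4339 lower, and 469 and 292 beyond 2-fold. The cause of these shifts in the limma fits was not tested. The share of calls that were higher was 61.3% and 61.2% in the FPKM fits.

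No effect shared by same-numbered samples was seen, since their deviations correlated at -0.08, -0.05 and -0.04. Whether samples of the same number were handled together is not given in the labels. With the replicate block 4221 genes were higher and 4120 lower, and no call among the 9 chemokine genes of the set that were tested changed. Other chemokine genes were not followed under the block. Counts of 4 or fewer for CX3CL1 set the limit of what this depth can show.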
